A study of Mus musculus with 6 samples.

Results

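Genes of bile acid synthesis and transport were examined in mouse liver after acute ethanol exposure. The set was taken as a list of 10 genes by symbol, out of 28880 genes in the liver table. It holds the synthesis enzymes Cyp7a1, Cyp8b1, Cyp27a1 and Cyp7b1, the conjugating enzyme Baat, the transporters Slc10a1, Slco1a1 and Abcb11, and the nuclear receptors Nr1h4 and Nr0b2. All 10 genes had enough reads to be tested.

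Livers of 3 mice given ethanol and of 3 controls were sequenced for RNA. All were male wild-type C57BL/6J animals aged 6 to 8 weeks and labelled as batch 1. Ethanol-exposed mice were fasted for 12 h, received 50% ethanol once by mouth at 6 g/kg, and were sampled 24 h later. The sources used here do not say whether control mice were fasted or given a vehicle, nor the time of day of sampling, so ethanol cannot be told apart from fasting or hour where these differed. A single dose in young males limits the groups as a model of long-term drinking.

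Bile acids are made from cholesterol in hepatocytes. Cyp7a1 starts the main (classic) route and Cyp27a1 and Cyp7b1 serve the alternative route, while Cyp8b1 decides how much cholic acid is made. Baat joins bile acids to taurine or glycine, Slc10a1 (NTCP) and Slco1a1 carry them from blood into the hepatocyte, and Abcb11 (the bile salt export pump) moves them into bile. Bile acids bind the receptor FXR, encoded by Nr1h4, which is known to switch on Nr0b2 (SHP, a repressor of Cyp7a1) and Abcb11.

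Abcb11 and Nr0b2 were the members that fell in ethanol-exposed livers, and the sequence just upstream of each is shown to place them in the genome. These are the 250 bases before the RefSeq start site in GRCm38.p6, printed 5′ to 3′ on the strand of the gene. Capitals mark AGGTCA or its reverse complement TGACCT, the half-site of many nuclear receptors, and a sense-strand TATAAA. The Abcb11 window is chr2:69342617-69342866 on the minus strand and the Nr0b2 window is chr4:133553126-133553375 on the plus strand. Gene coordinates printed further on are as deposited, with no build assigned, and cannot be compared with these window positions.
Abcb11: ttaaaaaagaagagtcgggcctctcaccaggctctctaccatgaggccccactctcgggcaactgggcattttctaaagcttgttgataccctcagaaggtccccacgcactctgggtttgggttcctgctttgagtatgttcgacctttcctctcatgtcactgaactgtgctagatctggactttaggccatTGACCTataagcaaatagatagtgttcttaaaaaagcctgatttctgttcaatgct
Nr0b2: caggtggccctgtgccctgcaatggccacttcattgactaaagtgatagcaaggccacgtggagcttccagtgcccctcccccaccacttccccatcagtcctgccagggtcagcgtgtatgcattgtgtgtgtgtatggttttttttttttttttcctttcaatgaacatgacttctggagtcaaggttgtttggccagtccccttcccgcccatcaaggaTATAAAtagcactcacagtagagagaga
The Abcb11 window held 1 half-site, in the TGACCT orientation at -56 to -51 from the start, and the Nr0b2 window held none, with TATAAA at -28 to -23. There were 8 upstream windows at hand for 7 of the 10 genes, 2 of them for Slc10a1, and the bases after the Cyp27a1 window were not found near the start of a GENCODE transcript of that gene. AGGTCA on either strand was found in 4 of the 8 windows (those of Abcb11, Slco1a1 and Nr1h4 and 1 of Slc10a1), against 14.0% of 32851 RefSeq windows of the same length. The inverted repeat AGGTCANTGACCT, the textbook form of an FXR element, had no exact match in the members' windows, against 0.0061% of all windows. The direct repeat AGGTCANAGGTCA had no exact match in them either, against 0.0335%. Only exact matches were counted, and aggccatTGACCT in the Abcb11 window differs from the inverted repeat at 1 base. AAGGTCA, which contains the half-site, was found in the Slco1a1 window and in 4.08% of all windows, and TATAAA was also present in the Cyp8b1 window and in 7.59% of all. Such letter matches describe the sequence only.

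Libraries held 60514417 to 74210869 counts. Expression is given as TMM-scaled CPM, read counts relative to library size after a scaling factor that corrects for a few very abundant genes taking up a different share of reads. These factors were 0.768 to 0.836 in ethanol-exposed and 1.26 to 1.27 in control livers. Without them the median change of all genes moved from -0.04 to -0.71 on the log2 scale, so small differences depend on the scaling. Ethanol replicate 3 lay apart from the other ethanol libraries on the second principal component (-47.3 against 17.5 and 26.8). Results without it are given for several genes where it ended a call or moved a value by over 1.5 times. For Ch25h, S100a8 and S100a9 it held the highest values, and their reads are given per library instead. Summed hepatocyte markers (9 genes, led by albumin) were 132001 to 136187 CPM in ethanol-exposed and 74055 to 85647 CPM in control livers. Hepatocyte RNA was thus present throughout. All 9 markers had positive log2 fold changes (median 0.50) and 6 did not overlap between the groups, against 59.0% of all genes tested. Of the 9, 2 were called higher, against 10.4% of all genes. FPKM is scaled by library size and transcript length without the TMM factors, so a comparison between groups on FPKM and one with library size alone share 1 scaling and are not separate checks. On FPKM the same sums were 43916 to 48505 and 39854 to 46249. In bulk tissue, fewer cells of a type and less RNA per cell cannot be told apart.

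Of the 10 genes, 2 rose (Cyp27a1 and Nr1h4), 2 fell (Abcb11 and Nr0b2) and 6 did not pass the test, which asked for a Benjamini-Hochberg adjusted p under 0.05 in edgeR's quasi-likelihood test and a log2 fold change beyond 1. Of all 16717 genes tested, 24.2% were called, 10.4% upward and 13.8% downward. By adjusted p alone the same 4 genes passed, 2 in each direction, where 43.0% of all genes did, 21.5% upward and 21.5% downward. The CPM of the groups did not overlap for 6 of the 10 genes, against 59.0% of all genes tested. Of these 6, 4 were higher with ethanol (Cyp8b1, Cyp27a1, Baat and Nr1h4), where the share of all genes is 28.0%, and 2 were lower (Abcb11 and Nr0b2), where it is 31.0%. The log2 fold change was positive for 5 members and negative for 5, with a median of 0.03. Without ethanol replicate 3 the counts of members called were again 2 up and 2 down. With library size alone they were 0 up and 2 down, and those of all genes 846 up and 5385 down. DESeq2 called 1 member up and 2 down.

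**Figure D1:**
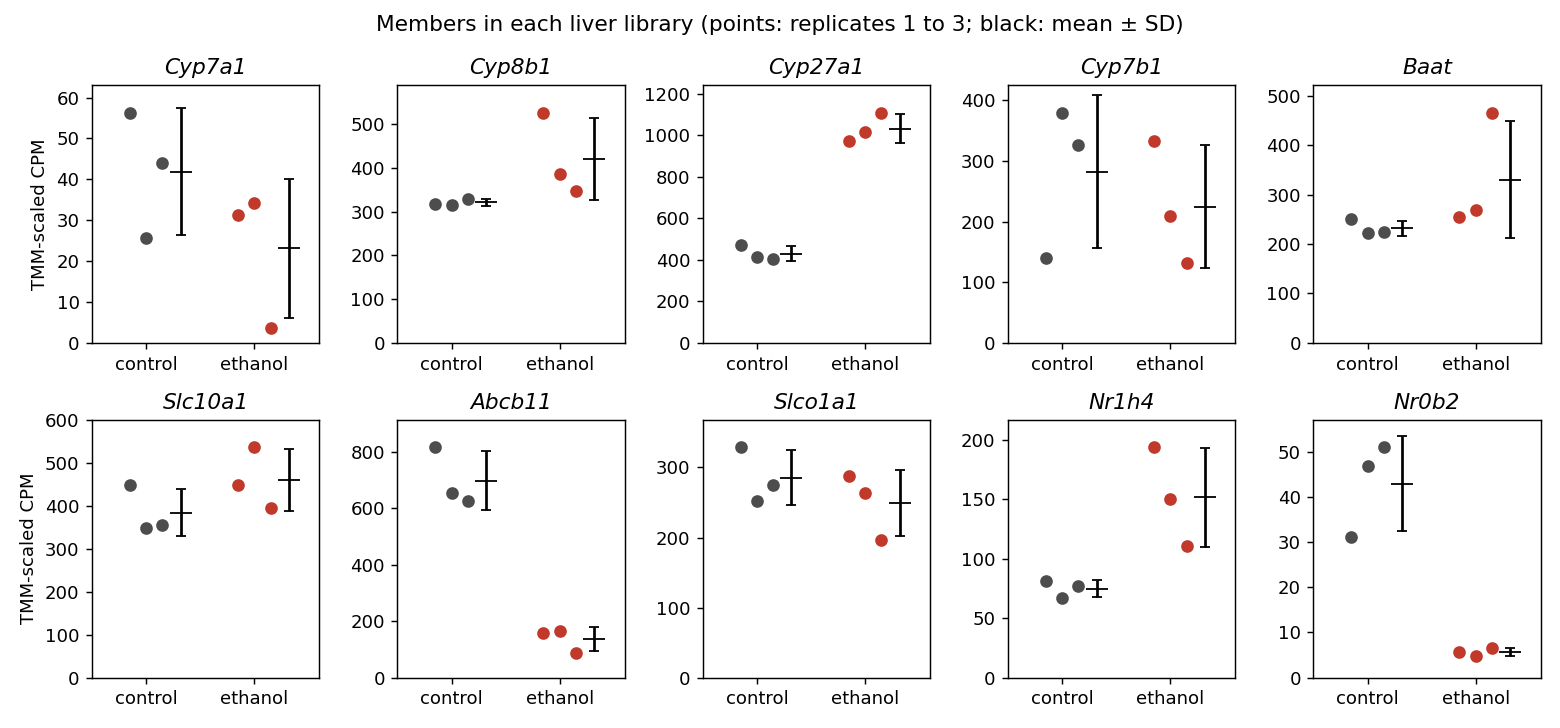
TMM-scaled CPM (y axis, from 0) of the 10 genes in control (grey) and ethanol-exposed (red) livers, 1 panel per gene, with points for replicates 1 to 3 in order and black bars for mean ± SD. Abcb11 and Nr0b2 lie far below the control points, at 88.4 to 164 against 624 to 816 CPM and at 4.82 to 6.49 against 31.1 to 51.0 CPM, while Cyp7a1 spreads widely within both groups.

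The member enzymes of the classic route, Cyp7a1 and Cyp8b1, did not pass the test. Cyp7a1 (ENSMUSG00000028240, chromosome 4, 6265612 to 6275633), the rate-limiting enzyme, was at 31.3, 34.3 and 3.63 CPM in ethanol replicates 1 to 3 and at 56.3, 25.5 and 43.9 CPM in control replicates 1 to 3. The groups overlapped on CPM, though not on FPKM (0.623 to 6.41 against 7.21 to 15.96), and ethanol replicate 3 was far below every other library, with 198 reads against 1803 to 5286. The log2 fold change was -0.86 (SE 0.71, edgeR adjusted p = 0.358), -0.34 (adjusted p = 0.343) without that library, and -1.51 (adjusted p = 0.116) with library size alone. Even among control mice the coefficient of variation was 36.9%, and it was 73.3% in ethanol-exposed mice.

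Cyp8b1 (ENSMUSG00000050445, chromosome 9, 121743422 to 121745371), the sterol 12-alpha-hydroxylase, had 526, 385 and 348 CPM with ethanol. Control livers were tightly grouped at 318, 315 and 329 CPM, below all ethanol values. Its log2 fold change of 0.39 (SE 0.16, edgeR adjusted p = 0.0958) missed the threshold, and turned to -0.28 when libraries were scaled by size alone. Without ethanol replicate 3 it was 0.52 (adjusted p = 0.0133), still under the fold threshold.

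In the alternative route 1 enzyme rose. Cyp27a1 (ENSMUSG00000026170, chromosome 1, 74752733 to 74777051), the mitochondrial sterol 27-hydroxylase, was at 973, 1017 and 1110.3 CPM in ethanol-exposed livers against 471, 416 and 405 CPM in controls. Every ethanol library lay above every control library. The means were 1033 ± 70.2 and 431 ± 35.1 CPM (SD, n = 3 each), 2.40-fold higher with ethanol (log2 fold change 1.26, SE 0.12, edgeR adjusted p = 0.00037). On FPKM the groups stayed apart, at 324 to 366 against 219 to 256, but the ratio was 1.51. With library size alone the log2 fold change was 0.59, under the fold threshold.

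Cyp7b1 (ENSMUSG00000039519, chromosome 3, 18126114 to 18297502), the oxysterol 7-alpha-hydroxylase, which is male-biased in mouse liver, varied most among controls. Its CPM was 333, 209 and 132 with ethanol and 140.3, 380.0 and 327 without. The groups overlapped, with control replicate 1 near the lowest ethanol library. The log2 fold change was -0.33 (SE 0.43, edgeR adjusted p = 0.563), and ranged from -0.73 without ethanol replicate 1 to -0.05 without ethanol replicate 3. It was -0.66 without control replicate 1, -0.06 without control replicate 2 and -0.997 (adjusted p = 0.0882) with library size alone.

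Baat (ENSMUSG00000039653, chromosome 4, 49489422 to 49506557), which completes synthesis by amidation, was at 254, 268 and 466 CPM in ethanol-exposed livers and 249, 222 and 224 CPM in controls. Ethanol replicate 3 was high and the other ethanol libraries lay just above the controls. The log2 fold change of 0.51 (SE 0.24, edgeR adjusted p = 0.121) became 0.18 without that library and -0.17 with library size alone.

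Among the transporters, uptake carriers did not pass the test and the canalicular exporter fell. Slc10a1 (ENSMUSG00000021135, chromosome 12, 80999957 to 81015479), the sodium-dependent uptake carrier, had 448, 536 and 394 CPM with ethanol and 447, 349 and 355 CPM without. These groups overlapped, and the log2 fold change was 0.26 (SE 0.16, edgeR adjusted p = 0.228), or -0.40 with library size alone. Slco1a1 (ENSMUSG00000041698, chromosome 6, 141853008 to 141892688), a sodium-independent uptake carrier of the organic anion transporter family that is male-biased in mouse liver, had 288, 264 and 196 CPM with ethanol and 329, 252 and 276 CPM without. The log2 fold change was -0.20 (SE 0.17, edgeR adjusted p = 0.394), or -0.04 without ethanol replicate 3, its lowest library, and -0.08 without control replicate 1. With library size alone it was -0.86 (adjusted p = 0.00665), and FPKM of the groups did not overlap, at 26.7 to 39.5 against 56.2 to 73.7.

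Abcb11 (ENSMUSG00000027048, chromosome 2, 69068626 to 69172958) was at 159, 164 and 88.4 CPM in ethanol-exposed livers against 816, 653 and 624 CPM in controls. Each ethanol library was far below the lowest control. Mean CPM was 137 ± 42.4 against 698 ± 103 (SD, n = 3 each), 5.08-fold lower with ethanol, and log2 expression fell by 2.35 (SE 0.26, edgeR adjusted p = 0.000682). Without ethanol replicate 3, its lowest library, it fell by 2.10 (adjusted p = 1.92e-05). Ranked by FPKM within a library, the gene held places 241 to 293 in controls and 1233 to 1828 with ethanol. The opposite-strand gene models Gm13613 and Gm13614 overlap Abcb11, with at most 84 and 9 reads in any library, against 4825 or more for Abcb11.

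The nuclear receptors moved in opposite directions. Nr1h4 (ENSMUSG00000047638, chromosome 10, 89290096 to 89369447) had 194, 150.1 and 111 CPM with ethanol and 81.1, 66.7 and 77.1 CPM without. All ethanol libraries were above all controls, on CPM but not on FPKM (34.6 to 61.0 against 34.1 to 41.7). The rise was 2.02-fold (log2 fold change 1.02, SE 0.20, edgeR adjusted p = 0.00698), barely past the fold threshold. It was 0.35 (adjusted p = 0.191) with library size alone, 0.99 with DESeq2, 0.80 without ethanol replicate 1, 0.94 without control replicate 2 and 1.21 without ethanol replicate 3. This call held in 6 of 16 alternatives.

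Nr0b2 (ENSMUSG00000037583, chromosome 4, 133280687 to 133283847) was at 5.75, 4.82 and 6.49 CPM in ethanol-exposed livers and 31.1, 46.8 and 51.0 CPM in controls. The groups were widely apart and the ethanol libraries close together. Mean CPM was 5.69 ± 0.834 against 42.9 ± 10.5 (SD, n = 3 each), 7.55-fold lower, and log2 expression fell by 2.92 (SE 0.22, edgeR adjusted p = 0.000193). Without ethanol replicate 3 it fell by 3.01 (adjusted p = 6.17e-05). Both Abcb11 and Nr0b2 were called lower in all 16 alternatives.

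**Figure D2:**
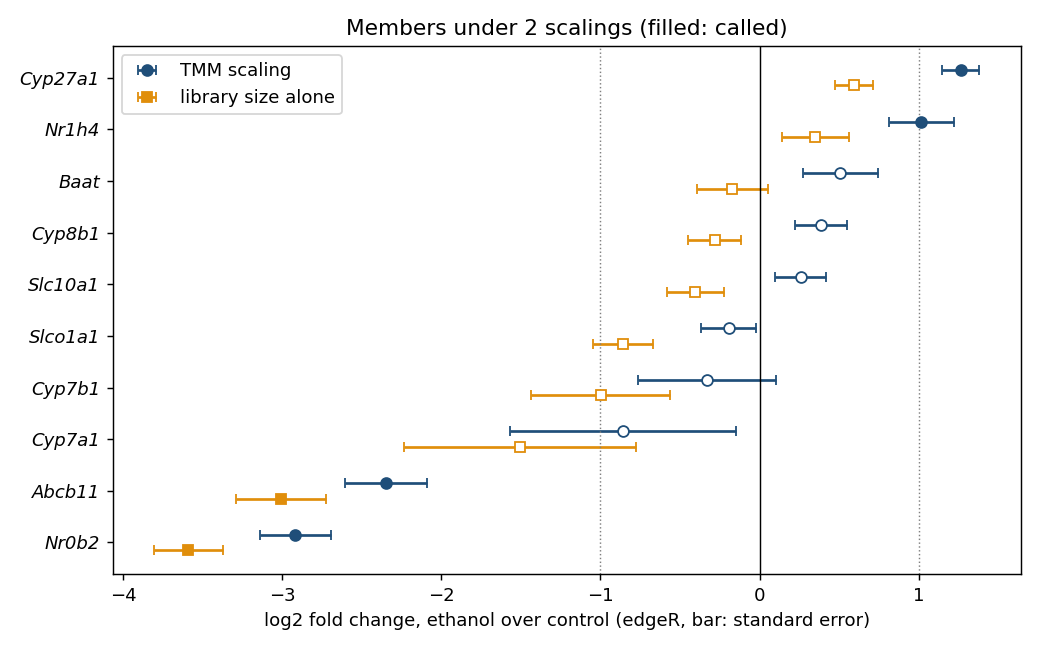
Log2 fold change (x axis, ethanol over control, edgeR) of the 10 genes with TMM scaling (blue circles) and with library size alone (orange squares), bars showing the standard error, filled symbols the genes called and dotted lines the fold threshold. Abcb11 and Nr0b2 stay called under both scalings, Cyp27a1 and Nr1h4 only with TMM, and Baat, Cyp8b1 and Slc10a1 change sign.

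Levels of different genes were compared on FPKM, which allows for transcript length. In control livers the order was Cyp27a1 (234), Slc10a1 (206), Cyp8b1 (194), Abcb11 (163), Cyp7b1 (154), Baat (141), Slco1a1 (63.8), Nr0b2 (44.7), Nr1h4 (38.4) and Cyp7a1 (11.8). Neighbours overlapped between libraries except Baat and Slco1a1, Slco1a1 and Nr0b2, and Nr1h4 and Cyp7a1. With ethanol it was Cyp27a1 (352), Cyp8b1 (159), Slc10a1 (155), Baat (125), Cyp7b1 (76.8), Nr1h4 (48.8), Slco1a1 (35.1), Abcb11 (20.3), Cyp7a1 (4.16) and Nr0b2 (3.70). Here Cyp27a1 stood clear of Cyp8b1, Slco1a1 of Abcb11 and Abcb11 of Cyp7a1, and the other neighbours overlapped. Abcb11 dropped from place 4 to place 8 and Nr0b2 from place 8 to place 10.

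Ratios of FPKM within a library do not depend on scaling between libraries. Slc10a1 to Abcb11, uptake to export, was 6.47, 7.48 and 10.2 with ethanol and 1.26, 1.23 and 1.31 without. The groups did not overlap, with a mean log2 ratio of 2.98 ± 0.34 against 0.34 ± 0.05 (SD, n = 3 each). Nr0b2 to Nr1h4, repressor to receptor, was 0.0602, 0.0652 and 0.119 with ethanol and 0.780, 1.43 and 1.35 without, a difference of -3.88 on the log2 scale. Cyp27a1 to Cyp7a1, alternative to classic route, was 59.7, 57.0 and 588 with ethanol against 16.1, 31.3 and 17.7, also without overlap. The mean log2 difference of 2.60 rests partly on ethanol replicate 3 and was 1.49 without it. Slco1a1 to Slc10a1 was lower with ethanol, at 0.268, 0.205 and 0.208 against 0.306, 0.301 and 0.323. Cyp8b1 to Cyp7a1 (24.0 to 205 against 12.1 to 26.4) and Cyp7b1 to Cyp7a1 (11.7 to 70.0 against 4.80 to 28.7) overlapped. With 3 libraries a group, an exact permutation test cannot go below p = 0.1. No test of any kind was made on these ratios.

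**Figure D3:**
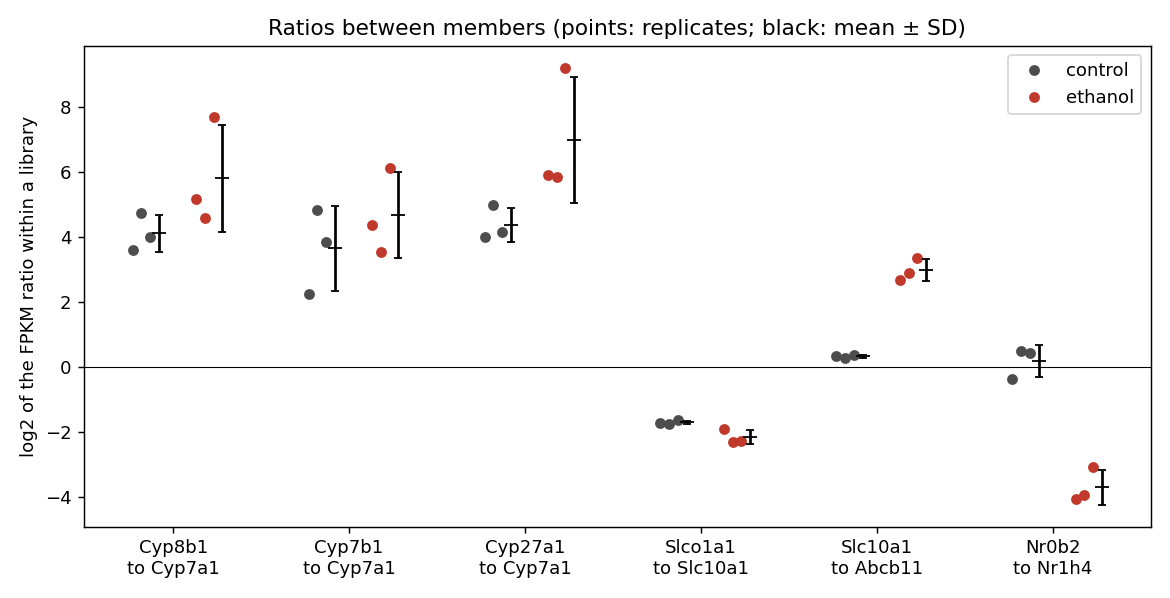
Log2 of the FPKM ratio of gene pairs within each library (y axis), with grey points for control and red points for ethanol replicates and black bars for mean ± SD. Slc10a1 to Abcb11 and Nr0b2 to Nr1h4 separate the groups most clearly, at 2.98 against 0.34 and with a difference of -3.88.

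Other genes of the pathway, 43 listed by known role, were set beside the members. Of 41 tested, 11 rose, 3 fell and 27 did not pass the test, where 10.4% of all genes rose and 13.8% fell, and the median log2 fold change was 0.27, against -0.04 for all genes tested. With library size alone 4 rose and 10 fell, where 846 of all 16717 genes rose and 5385 fell, a larger share lower than among these 41. Under that scaling Slc27a2 (0.71), Amacr (0.54), Cyp46a1 (0.99), Abcc4 (0.92), Slco1a4 (0.72) and Nr1i2 (0.54) were below the fold threshold, and Nr5a2 and Slco1b2 (both -1.35) were called lower.

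Among 15 other synthesis genes, 5 rose and 1 fell. Hsd3b7, which acts on 7-alpha-hydroxylated sterols in both routes, was at 138, 138 and 133 CPM with ethanol and 499, 490 and 486 CPM without. The libraries of each group were nearly equal, and log2 expression fell by 1.85 (SE 0.10, edgeR adjusted p = 7.33e-05). Its opposite-strand neighbour 9430064I24Rik overlaps it and had 249 to 384 against 1148 to 1299 reads, few beside the 7273 to 8427 and 37316 to 46866 reads of Hsd3b7. Slc27a2, a very long-chain acyl-CoA synthetase that acts on bile acid precursors, rose by 1.38 (edgeR adjusted p = 0.000734). Cyp46a1, a cholesterol 24-hydroxylase, rose by 1.65 from a low level of 0.947 to 1.27 CPM in controls. Ch25h, which makes 25-hydroxycholesterol, had 18, 39 and 167 reads with ethanol and 8, 0 and 0 without, and was called higher (edgeR adjusted p = 0.0184), though not without control replicate 2 or 3. Amacr, a racemase of side-chain shortening, had 179, 149 and 416 CPM against 102 to 108 CPM in controls. Its log2 fold change of 1.23 (edgeR adjusted p = 0.0312) was 0.64 without ethanol replicate 3, and the call was also lost without any 1 of the control libraries.

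Among 13 other transport genes tested, 4 rose and 1 fell. Slc10a2, the apical sodium-dependent bile acid transporter best known from ileum and bile duct cells, was at 92.2, 124 and 97.6 CPM with ethanol and 17.7, 31.3 and 29.1 CPM without. The groups were well apart (log2 fold change 2.01, SE 0.24, edgeR adjusted p = 0.000895). Of the cholangiocyte markers beside it, 1 of 7 tested was called, where 24.2% of all genes were. The marker called was Sox9, at 29.6 to 34.2 against 4.25 to 5.12 CPM. Negative log2 fold changes were found for 5 of the 7, and the summed list was 77.1 to 104 against 64.1 to 106 CPM. Of the ileal markers, Fgf15 and Cdx2 had no reads in any library, and Fabp6 and Alpi were not among the genes given. Vil1 had 8 to 23 reads with ethanol and 6 to 20 without (log2 fold change 0.85, not called). Lct had no reads with ethanol and at most 5 in a control library. The part of other cell types in the Slc10a2 result was not tested. Abcg5 (1.68), a sterol exporter into bile, Abcc4 (1.58), a basolateral exporter, and Slco1a4 (1.38), an uptake carrier, also rose, with edgeR adjusted p of 0.00265, 0.0142 and 0.00135. Abcg5 (4389 to 10227 reads with ethanol, 2860 to 4244 without) overlaps Abcg8 on the other strand (2019 to 4854 against 3385 to 4590 reads), and without a stated strand their reads may be mixed. Slc51b, a subunit of the basolateral bile acid exporter, was called lower on only 10 to 17 against 39 to 87 reads, a call lost without any 1 of ethanol replicates 1 and 2 and control replicates 1 and 3.

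Other carriers did not pass. Slco1b2, the main organic anion uptake carrier of mouse hepatocytes, had 456, 504 and 198 CPM against 670, 586 and 619 CPM (log2 fold change -0.69, edgeR adjusted p = 0.117). Ethanol replicate 3 was its lowest library, and without it the change was -0.37 (adjusted p = 0.0138). Abcc3, a basolateral exporter, had a log2 fold change of 0.70 (edgeR adjusted p = 0.0297), under the fold threshold. With library size alone this was 0.04 (edgeR adjusted p = 0.901). Abcc2, the canalicular exporter of conjugates, had a log2 fold change of 0.26 (edgeR adjusted p = 0.224). For Abcc2 it was 0.42 (adjusted p = 0.00462) without ethanol replicate 3 and -0.40 with library size alone.

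Among 13 regulators tested, 2 rose and 1 fell. Fgfr4, the hepatocyte receptor for the gut hormone FGF15, had 13.7, 19.4 and 10.99 CPM with ethanol and 28.7, 33.5 and 33.3 CPM without. These groups did not overlap, and log2 expression fell by 1.11 (edgeR adjusted p = 0.00547), or by 0.93 without ethanol replicate 3, which ends the call. Its co-receptor Klb was at 28.6, 33.8 and 12.3 against 17.3, 9.99 and 12.7 CPM (0.90, edgeR adjusted p = 0.0896), and passed at 1.24 without ethanol replicate 3. Nr5a2 (LRH-1), an activator of Cyp7a1 and Cyp8b1 and a partner of SHP, was at 25.8, 24.4 and 34.9 against 44.7, 44.5 and 46.7 CPM (-0.68, edgeR adjusted p = 0.0104), under the fold threshold. Nr1i2 (PXR), a xenobiotic receptor that also binds bile acids, rose by 1.20 (edgeR adjusted p = 0.00912). Vdr, the vitamin D receptor, had 75, 49 and 43 reads with ethanol and none in controls, at least 26.8-fold higher against a floor of 3 counts per library.

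**Figure D4:**
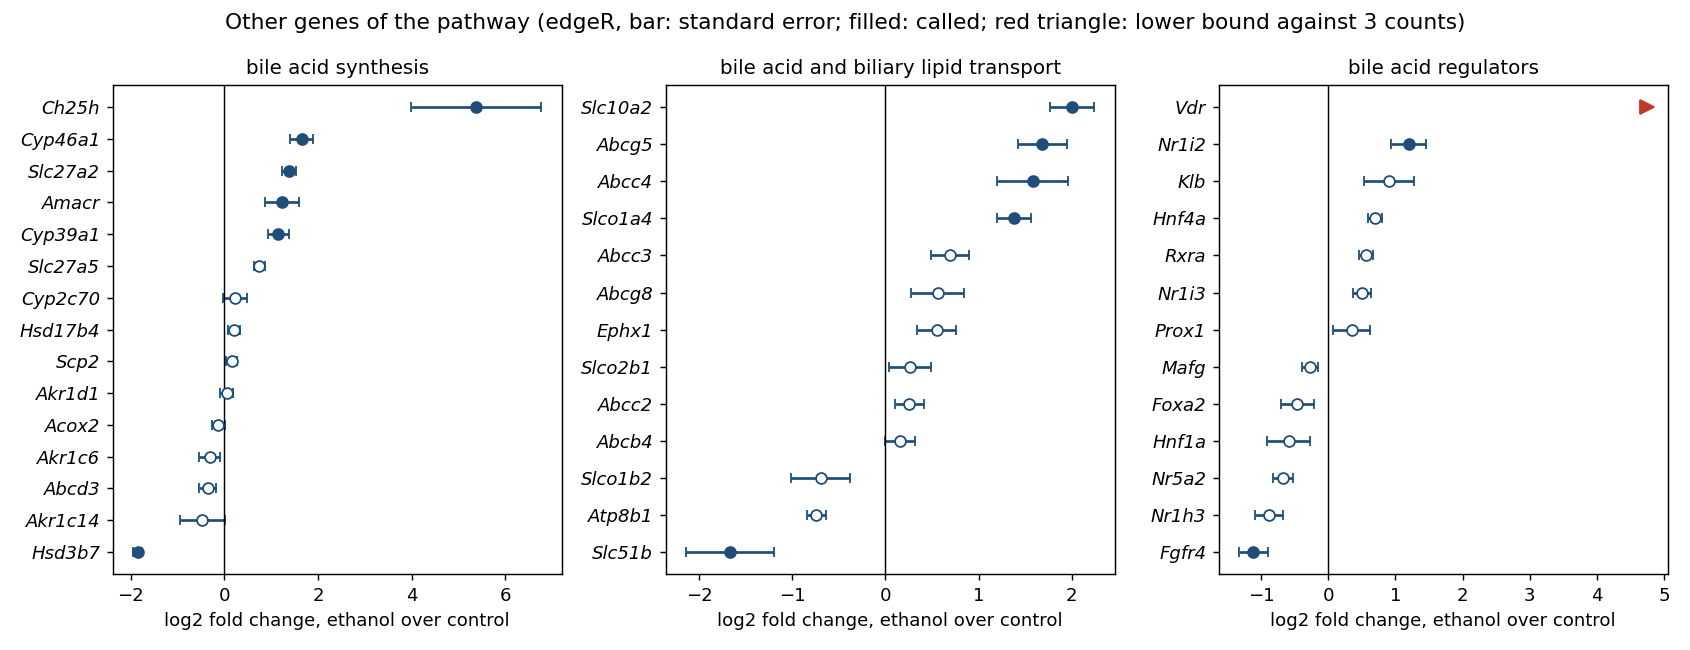
Log2 fold change (x axis, ethanol over control, edgeR) of the other synthesis, transport and regulator genes, bars showing the standard error, filled points the genes called and the red triangle a lower bound against 3 counts. Of 41 genes, 11 rose and 3 fell, with Hsd3b7, Slc51b and Fgfr4 at the low end.

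The summed markers of other liver cell types overlapped between the groups on CPM. This overlap rested on ethanol replicate 1 for the Kupffer cell list. It rested on ethanol replicate 3 for the sinusoidal endothelial list and for the lymphocyte and neutrophil list. Without the replicate named, the ethanol sums of these lists lay below all control sums. Kupffer cell markers summed to 99.1 to 134 against 121 to 131 CPM and stellate cell markers to 129 to 161 against 124 to 170 CPM, with 2 of 8 stellate genes lower (the collagen genes Col1a1 and Col3a1), 6 negative (median -0.45) and Dcn, the most abundant, at 87.5 to 104 against 65.7 to 75.1 CPM, and no Kupffer gene called, where 24.2% of all genes were. Sinusoidal endothelial markers summed to 99.0 to 170 against 138 to 152 CPM, where 1 of 8 rose and 3 fell and 6 were negative (median -0.62). The one that rose was Lyve1, at 24.2, 33.3 and 69.3 against 3.39 to 3.67 CPM. Lymphocyte and neutrophil markers summed to 3.79 to 12.6 against 5.38 to 6.20 CPM, and of 8 tested, 2 rose and 2 fell. Those that rose were the neutrophil genes S100a8 (33, 40 and 160 reads with ethanol against 0, 0 and 4) and S100a9 (48, 103 and 339 against 23, 9 and 15), and those that fell were Ptprc and the B cell gene Ms4a1. On FPKM the sums did not overlap for these 4 lists. They were lower with ethanol for Kupffer cells (48.0 to 60.4 against 82.5 to 91.0), sinusoidal endothelial cells (15.4 to 29.4 against 31.7 to 36.4) and stellate cells (13.9 to 18.2 against 20.5 to 27.4), and higher for the lymphocyte and neutrophil list (2.02 to 12.02 against 1.20 to 1.44). In that list the neutrophil genes S100a8 and S100a9 made up most of the ethanol sums, while 6 of the 8 genes tested had negative log2 fold changes (median -1.12). The members are mainly hepatocyte genes, and the part of cell composition in their results was not tested.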

How the data were processed

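RNA was sequenced from 3 ethanol-exposed and 3 control mouse livers, grouped by their labels. The authors deposited a whole-number count and an FPKM value per Ensembl gene and library. Before alignment, according to the authors, reads were trimmed of adaptors and filtered by quality and by uncalled bases. The aligner, counter and use of strand are not given in the sources used here. The submitters' processing notes name GRCm38 (mm10), yet only 3.51% of 27049 shared genes start within 1000 bases of their GRCm38 annotation, so gene coordinates are printed as deposited, with no build assigned. Promoter sequences are from RefSeq, GRCm38.p6. A further 1 count column matched no sample and was not used.

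Counts were tested with edgeR 4.0.16 (filterByExpr, TMM factors, quasi-likelihood test, two-sided, no covariates, R 4.3.3), with Benjamini-Hochberg adjustment over 16717 genes. A gene was called at adjusted p under 0.05 and an absolute log2 fold change above 1. The square root of the common dispersion was 0.299. Alternatives used DESeq2 1.42.0, limma 3.58.1 on log2(FPKM + 1) or log2(FPKM + 0.1), other scalings and filters, a replicate block and leaving out each library. The scripts were tested on simulated data. The p-values measure the spread between these 3 libraries per group. Counting error was small at these depths except for genes with few reads, such as Slc51b, Ch25h and Cux2, and floors cover counting error only.

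Named genes were the 10 members, up to 4 called genes per direction in each other list, and Fgfr4, Klb, Nr5a2, Slco1b2, Abcc2, Abcc3 and Abcc4. Markers named without a call were albumin, Dcn, Fgf15, Cdx2, Vil1, Lct, Fabp6 and Alpi, and genes overlapping a named gene were also given. The members and lists were chosen with earlier results of these data known.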

Additional observations from a re-analysis of the deposited data

How the results depend on the processing

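Calls of Abcb11 and Nr0b2 held in all 16 alternatives, with log2 fold changes of -3.06 to -2.10 and -3.59 to -2.78. Cyp27a1 was called in 13 (0.59 to 1.33) and Nr1h4 in 6 (0.31 to 1.21). Signs turned with library size alone, limma on log2(FPKM + 1) and limma on log2(FPKM + 0.1), in that order, for Cyp8b1 (-0.28, -0.31, -0.31), Baat (-0.17, -0.22, -0.22), Slc10a1 (-0.40, -0.41, -0.42) and Abcc2 (-0.40, -0.42, -0.43). Members called higher were 1 with DESeq2, upper quartile scaling, no low-count filter or a mean FPKM of at least 1, and 0 with library size alone or limma with either pseudocount. All genes called up and down were 846 and 5385 with library size alone, 1020 and 1166 at a mean FPKM of at least 1, 3598 and 3591 by adjusted p alone, 408 up with limma (+ 1), and 735 and 4964 with limma (+ 0.1). The share of calls that were lower was 57.0% with TMM, 86.4% with library size alone, 80.7% with limma (+ 1) and 87.1% with limma (+ 0.1). Other pathway genes called up and down were 4 and 10 with library size alone, 1 and 9 with limma (+ 1), and 3 and 11 with limma (+ 0.1), with 7 up at a mean FPKM of at least 1 and 16 up and 6 down by adjusted p alone. The setting by adjusted p alone drops the fold threshold and changes nothing else. For the other settings the cause was not tested.

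Leaving out 1 library at a time gave 1490 to 1920 genes up and 1713 to 2902 down, 1 to 2 members up and 2 down, and 9 to 11 other pathway genes up and 2 to 3 down. To look for pairing by replicate number, each group's mean log2 CPM was subtracted per gene and the deviations were correlated between groups. Same-numbered libraries gave -0.0440, -0.0336 and -0.00697, and differently numbered ones -0.0134 to 0.0392. Deviations of only 3 libraries constrain one another, so these values cannot settle whether the samples were paired. With a replicate block 1 member was called up (Cyp27a1 at 1.26, adjusted p = 0.0043 by edgeR). Nr1h4 (0.99, under the fold threshold), Ch25h (adjusted p = 0.0588) and Slc51b (0.0535) lost their calls. Low read numbers limit what is shown for Slc51b and Ch25h, and the spread between libraries limits it for Cyp7a1 and Cyp7b1.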

Other observations

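Male- and female-biased liver genes were set beside Cyp7b1 and Slco1a1, which are male-biased in mouse liver. Of 11 male-predominant genes, 2 rose and 2 fell, where 10.4% of all genes tested rose and 13.8% fell. Their median log2 fold change was -0.01. Elovl3, a fatty acid elongase, was at 40.5, 26.4 and 22.9 CPM with ethanol and 622, 766 and 739 CPM without, and fell by 4.57 (edgeR adjusted p = 7.64e-05). It overlaps Pitx3 on the other strand, at 33 to 43 against 1189 to 1311 reads. Hsd3b5, a steroid reductase, fell by 1.998 (edgeR adjusted p = 0.0235), a call lost without ethanol replicate 1 or any 1 of the control libraries. Cyp2d9 and the urinary protein gene Mup20 rose by 1.19 and 1.10, but by 0.52 and 0.42, under the fold threshold, with library size alone. Both calls were also lost without ethanol replicate 1 (0.98 and 0.83), and that of Mup20 without control replicate 1 (adjusted p = 0.0568).

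Of 7 female-predominant genes tested, 2 rose, where 10.4% of all genes tested rose. Cyp2a4, a steroid hydroxylase, was at 6.74, 8.08 and 2.99 CPM with ethanol and 0.511, 0.184 and 0.826 CPM without (log2 fold change 3.54, edgeR adjusted p = 0.00357). The transcription factor gene Cux2 was at 0.626, 0.392 and 2.68 CPM against 0.0426, 0.105 and 0.182 CPM (3.47, edgeR adjusted p = 0.0194), its call was lost without control replicate 1 or 2, and the change was 2.21 without ethanol replicate 3.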
